A study of Dugesia japonica with 16 samples.

Results

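In regenerating pieces of the planarian flatworm *Dugesia japonica*, 197 assembly components divided their abundance differently among their transcripts with PCTR3 and with RCTR3 than with vehicle, while their summed abundance stayed steady. A component is the set of transcripts that the assembler kept together, named by the identifier without its transcript number. The 197 members were selected on measured values, out of 16873 components in the file. They were chosen by conditions on the group means. The mean summed abundance was at least 5 TPM (a length-corrected level of a transcript relative to the whole library) in each group, which held for 11868 components. The mean sum with PCTR3 and with RCTR3 lay within 1.5-fold of vehicle, which left 10766 components, 5436 of them with 2 or more transcripts. At least 1 transcript had a mean share of the sum that differed from vehicle by 20 percentage points or more, in the same direction, with both compounds. These switching transcripts numbered 308, of which 141 gained and 167 lost share.

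The 16 libraries came from posterior pieces of worms that were starved for 7 days at 20 °C, cut behind the eyes and left for 48 h in water with an additive. The 4 groups of 4 libraries received vehicle (0.1% ethanol), MCTR3, PCTR3 or RCTR3, each compound at 10 nM. All groups share the starvation, the surgery and the time of collection, while the sources used here do not give the worms' age, how many went into a library, or whether compound groups also held ethanol. MCTR3, PCTR3 and RCTR3 are the cysteinyl forms of the conjugates in tissue regeneration of the maresin, protectin and resolvin families, lipid mediators made from docosahexaenoic acid that are studied in the resolution of inflammation. In the labels, vehicle and MCTR3 take the library numbers 1 to 8, and numbers 9 to 16 went to PCTR3 and RCTR3, so a treatment and its place in the numbering cannot be told apart when groups from different sides are compared. The labels do not say whether libraries of a group came from separate batches of worms, and the p-values reflect library-to-library spread that may be technical.

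A gene can give several transcripts by splicing its exons in different ways, or by starting or ending its RNA at different places, and so can change its product without changing its output. In planarians such choices differ between neoblasts, the dividing stem cells that build the regrowing tissue, and differentiated cells. In *Schmidtea mediterranea*, a related species, RNA-binding proteins of the CELF and MBNL families push splicing in opposite directions between these cells. The identifiers used here are paired with no gene names in the file, so no role can be given to a member, and neither splicing regulators nor markers of cell types or of the labelled tissue could be looked up. Transcripts of 1 component may also be alleles, close gene copies or assembly fragments, which identifiers do not tell apart. In whole pieces, a switch inside cells and a change in the mix of cells cannot be told apart. How reads that fit several transcripts of a component were divided among them is not given, and every share depends on it.

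Many members exchanged one pair of transcripts, in part by construction. In 111 of the 197 members (56.3%), exactly 1 transcript gained and 1 lost at least 20 points. In a further 56, 1 transcript lost at least 20 points with both compounds and none gained as much with both, and in 30, 1 transcript gained and none lost as much with both. Members with 2 transcripts numbered 56, those with 3 to 5 transcripts 76, and those with 6 or more 65. With 2 transcripts a loss is by construction a gain of the other, so all 56 are among the 111. Among members with 3 or more transcripts, such pairs past the limit were a minority. The median member held 4 transcripts, against 3 in the other 5239 steady components of 2 or more, and 33.0% of members held 6 or more, against 25.2%. Members were low to moderate in abundance, with a median summed level of 14.9 TPM (quartiles 9.37 and 26.9), against 22.2 TPM (quartiles 12.3 and 41.9) in the others. These differences were not tested. No comp number (the part of the identifier before the component index) occurred in more than 1 member. Only 22 of the 197 members had a comp number that holds other components in the file, so few repeats were possible.

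The share changes chosen by the rule spanned a wide range above its limit. For 162 of the 308 transcripts the smaller of the PCTR3 and RCTR3 differences was between 20 and 25 points, for 79 between 25 and 30, for 44 between 30 and 40, and for 23 at least 40 points. Among the 141 transcripts that gained, the median of the group mean shares was 26.0% in vehicle, 59.6% with PCTR3 and 58.3% with RCTR3. Among the 167 that lost, it was 56.1% in vehicle, 25.4% with PCTR3 and 26.1% with RCTR3. The losing transcript was usually the main one: 130 of the 167 led their component in vehicle, while 29 of the 141 gaining transcripts already led theirs. The rule favours this contrast, because a loss of 20 points needs a vehicle share of at least 20%, and a gain needs room to rise. These values are what the rule used and carry no test. The same holds for the limma calls against vehicle on the arcsine square root of the share, which took in 196 of the 308 transcripts (63.6%) for PCTR3, against 6.06% of all 21999 tested, and 206 (66.9%) for RCTR3, against 9.48%.

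**Figure D1:**
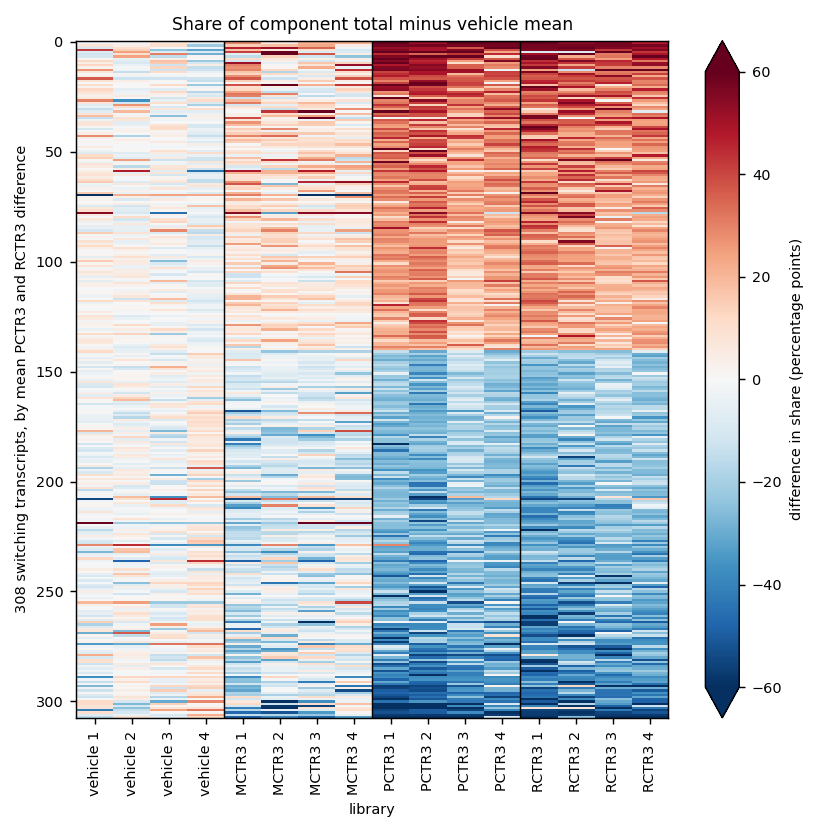
Heat map of the 308 switching transcripts (rows, ordered by their mean difference with PCTR3 and RCTR3) in the 16 libraries (columns), coloured by share of the component total minus the vehicle mean in percentage points, with colours saturating at 60 points. The 141 gaining transcripts are red and the 167 losing transcripts blue in most PCTR3 and RCTR3 libraries, and MCTR3 libraries are paler.

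In most switching transcripts the single libraries separated, and in a minority they did not. The 4 PCTR3 libraries lay wholly on one side of the 4 vehicle libraries in 229 of the 308 transcripts, against 15% of all tested. The 4 RCTR3 libraries did so in 230, against 17.1%, and both groups did so in 203 (65.9%), against 9.19%. Because the rule used these contrasts, nothing is read from these counts. Spread within groups was large: the median range between the 4 libraries of a group was 16.9 points for vehicle, 17.9 for MCTR3, 21.5 for PCTR3 and 20.9 for RCTR3. In 63 transcripts of 40 members, shares of libraries of 1 group lay more than 50 points apart.

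The largest exchanges by the smaller of the differences were in comp134254_c0 and comp121080_c0, which head both the gains and the losses. In comp134254_c0, a component of 4 transcripts, comp134254_c0_seq4 held 69.9%, 93.6%, 78.7% and 96.1% of the total in the vehicle libraries. It held 36.5%, 45.3%, 37.7% and 51.0% with MCTR3. With PCTR3 it held 0.0725% in library 1, was listed at 0 in library 2, was under 0.0725% in library 3 and held 74.8% in library 4. The fourth PCTR3 library therefore sat among the vehicle libraries, and the other PCTR3 libraries near 0. With RCTR3 the transcript held 0.0188% in library 1, 59.4% in library 2, under 0.0188% in library 3 and 16.2% in library 4. Its mean level was 13.1 ± 2.06 TPM in vehicle, against 2.45 ± 4.89 (PCTR3) and 2.67 ± 4.10 (RCTR3) TPM (SD, n = 4). Its counterpart comp134254_c0_seq3 averaged 11.6% ± 14.2 in vehicle libraries, 54.8% ± 6.50 in MCTR3, 78.0% ± 39.3 in PCTR3 and 77.8% ± 31.3 in RCTR3 libraries (SD, n = 4). The total of the component was 15.5 ± 0.576 TPM for vehicle, 14.9 ± 0.411 for MCTR3, 14.2 ± 1.12 for PCTR3 and 14.2 ± 1.72 for RCTR3.

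The exchange in comp121080_c0, which has 2 transcripts, was complete in every PCTR3 and RCTR3 library. comp121080_c0_seq2 held 49.4%, 53.4%, 47.5% and 78.6% of the total in the vehicle libraries and 42.7%, 39.6%, 34.5% and 52.6% in the MCTR3 libraries. It held at most 0.0485% in any PCTR3 library and at most 0.0331% in any RCTR3 library. Vehicle and MCTR3 libraries overlapped, and both lay far above the other groups. comp121080_c0_seq1, the only other transcript, averaged 43.6 ± 12.7 TPM for vehicle, 53.8 ± 7.24 for MCTR3, 83.4 ± 4.14 for PCTR3 and 78.1 ± 3.29 for RCTR3 (SD, n = 4). The component total was 104 ± 9.63 TPM for vehicle, 93.3 ± 2.06 for MCTR3, 83.4 ± 4.15 for PCTR3 and 78.1 ± 3.30 for RCTR3, within the limit of 1.5-fold but lower in each compound group.

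**Figure D2:**
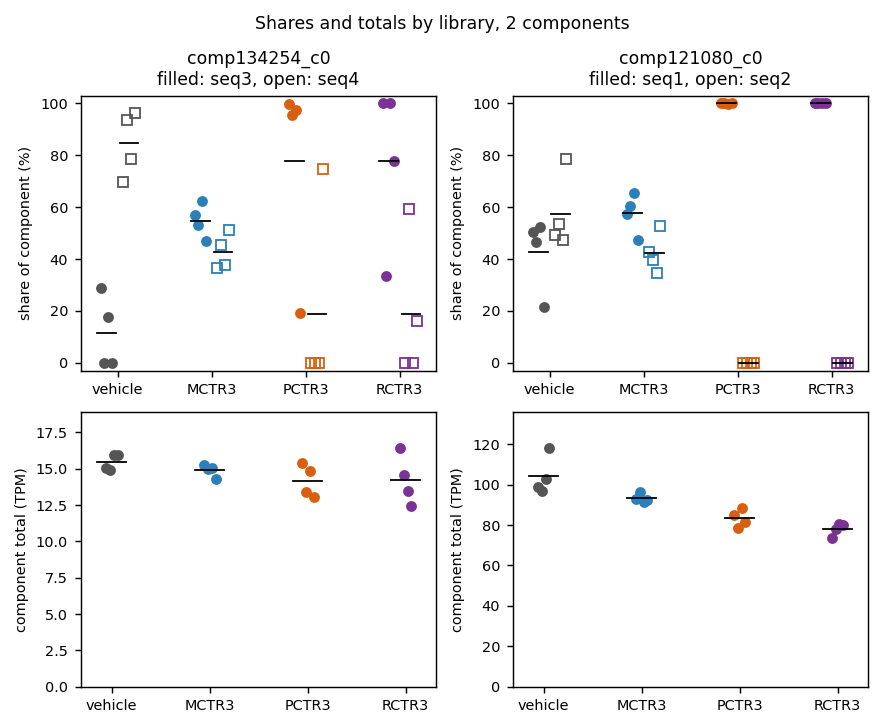
Share of the component total in percent (top) and component total in TPM (bottom) by library for comp134254_c0 and comp121080_c0, with 1 point per library and a bar at each group mean. PCTR3 library 4 lies with the vehicle libraries in comp134254_c0, while all PCTR3 and RCTR3 libraries lie at about 0 or 100% in comp121080_c0.

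Some members were singled out after their values had been seen, to show the range of the exchange. The most abundant member, comp116833_c0, averaged 440.1 TPM over the groups and has 2 transcripts. comp116833_c0_seq1 held 59.5%, 57.0%, 64.4% and 65.4% of it in vehicle, 57.1%, 55.0%, 55.7% and 49.0% with MCTR3, 42.8%, 29.8%, 47.2% and 29.9% with PCTR3, and 33.0%, 24.2%, 36.7% and 37.0% with RCTR3. The leading transcript thus changed from one to the other, at totals of 445 ± 17.6, 435 ± 15, 446 ± 26 and 435 ± 17.5 TPM in vehicle, MCTR3, PCTR3 and RCTR3 (SD, n = 4).

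comp145098_c0 has the most transcripts among members, 45. Its comp145098_c0_seq12 averaged 40.8% ± 8.81 in vehicle libraries, 42.8% ± 5.05 in MCTR3, 12.4% ± 12.6 in PCTR3 and 8.23% ± 10.9 in RCTR3 libraries (SD, n = 4). No transcript of it gained 20 points with both compounds, and its counterpart comp145098_c0_seq1 averaged 25.9% ± 6.70 (vehicle), 38.2% ± 9.80 (PCTR3) and 40.1% ± 7.18 (RCTR3). comp131961_c0_seq2 was the only switching transcript listed at 0 in all vehicle and all MCTR3 libraries. It held 69.0%, 10.8%, 31% and 19.4% of its component in the PCTR3 libraries, 44.5%, 44.1% and 25.6% in RCTR3 libraries 1, 2 and 4, and was listed at 0 in RCTR3 library 3. With component totals of about 6 TPM (5.81 ± 0.547 in vehicle and 6.56 ± 1.13 with RCTR3), these shares rest on low levels.

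The members just inside the limit of 20 points were comp132091_c0, where comp132091_c0_seq2 lost 20.06 points by the smaller difference, and comp143618_c1, where comp143618_c1_seq6 gained 20.02. Just outside were comp138534_c0, where comp138534_c0_seq1 lost 19.99 points, and comp138079_c0, where comp138079_c0_seq3 gained 19.97. The vehicle and PCTR3 libraries of comp138534_c0_seq1, at 95.3% to 100% and 72.9% to 85.3%, did not overlap either, so the limit marks no gap in the data.

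In many members the transcript that led the component changed. The leading transcript by mean share differed from vehicle in 97 of the 197 members with PCTR3 (49.2%) and in 99 with RCTR3 (50.3%). It differed with both compounds in 91, and in 88 of these the new leader was the same transcript. In 35 of those 88 it also led with MCTR3. With MCTR3 the leader differed from vehicle in 42 members (21.3%). Among the other 5239 steady components the leader differed in 254 with MCTR3 (4.85%), 401 with PCTR3 (7.65%) and 439 with RCTR3 (8.38%). Members divided their totals about as evenly in every group: the median effective number of transcripts (the inverse of the sum of squared shares) was 1.97 for vehicle, PCTR3 and RCTR3 and 2 for MCTR3. In the other components it was 1.64 for vehicle and MCTR3, 1.69 for PCTR3 and 1.70 for RCTR3. The leading share in vehicle had a median of 58.7% in members and 74.5% in the other components. The rule chose members by their vehicle, PCTR3 and RCTR3 shares, which favours a change of leader, and the same new leader, among them. Nothing is therefore read from the contrast with the other components, and none of this was tested.

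The shares with MCTR3, the maresin conjugate, were not used by the rule, although the vehicle shares they are set against were, so this comparison is not independent of the choice. The mean shares with MCTR3 had a median of 35.8% among gaining and 47.0% among losing transcripts. The median difference from vehicle was 7.68 points among gaining transcripts with MCTR3, beside 26.5 with PCTR3 and 26.6 with RCTR3. Among losing transcripts it was -8.22 points with MCTR3, beside -26.5 and -27.7. These comparisons share the same vehicle libraries. Whatever its sign, the MCTR3 difference had a median size of 8.22 points over the 308 switching transcripts and 1.45 points over all 21999 tested. The 95% intervals of the switching transcripts were also wider, with a median half-width of 14.2 points, beside 5.03 points. Nothing is therefore read from the contrast with all tested transcripts.

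**Figure D3:**
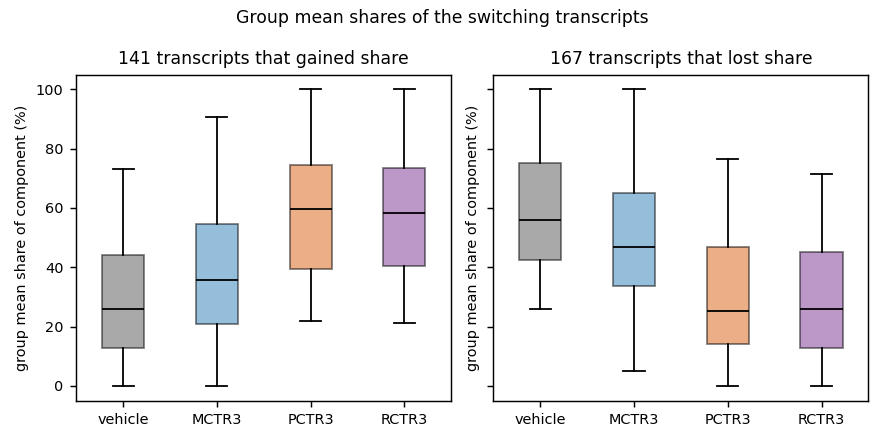
Group mean share of the component total in percent for the 141 gaining (left) and 167 losing (right) transcripts. Boxes give the quartiles and median over transcripts and whiskers the full range. MCTR3 medians are 35.8% and 47.0%, between those of vehicle and those of PCTR3 and RCTR3.

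Tested transcript by transcript, no switching transcript was called different between MCTR3 and vehicle. By limma, 0 of 308 had an adjusted p under 0.05, against 0.00455% of all tested, which is 1 transcript, comp137080_c2_seq8 of a component that is no member (0.00140% ± 0.00276 in vehicle and 9.70% ± 2.92 with MCTR3, limma adjusted p = 0.018). At an unadjusted p under 0.05 there were 57 of 308 (18.5%), against 5.61% of all tested. Without vehicle replicate 4 that number was 36. The 4 MCTR3 and 4 vehicle libraries did not overlap in 29 of the 308 transcripts (9.42%), 13 higher and 16 lower with MCTR3, against 3.35% of all tested. The rule chose these transcripts partly by their vehicle shares, which can raise both counts above those of all tested without any effect of MCTR3. Nothing is therefore read from the excess. The intervals are wide, with a median half-width of 14.2 points. The 95% interval of the difference lay within 20 points for 115 of the 308 transcripts (37.3%), against 92.2% of all tested. It lay within 30 points for 236 (76.6%), against 97.8%.

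Among gaining transcripts with the lowest p for MCTR3 against vehicle, the MCTR3 mean lay between vehicle and the other compounds. comp141318_c4_seq2 held 53.5%, 41.0%, 53.4% and 37.3% of its component in vehicle, 67.4%, 66.8%, 68.1% and 58.8% with MCTR3, 75.7%, 77.6%, 66.2% and 70.4% with PCTR3, and 69.9%, 72.0%, 83.3% and 83.0% with RCTR3. Its MCTR3 libraries all lay above its vehicle libraries, by 18.9 points on average (SE 4.35, limma adjusted p = 0.63). In TPM it averaged 5.29 ± 0.720 in vehicle and 5.83 ± 0.421 with MCTR3 (SD, n = 4). Its counterpart comp141318_c4_seq9 averaged 4.09 ± 1.61 and 2.04 ± 0.191 TPM, and the component total 11.6 ± 1.75 and 8.94 ± 0.381 TPM. The higher share thus went with a lower total more than with a higher level of the transcript. comp142099_c0_seq17 held 30.7%, 26.8%, 29.1% and 19.4% in vehicle, 41.1%, 42.8%, 42.1% and 34.4% with MCTR3, 62.9%, 64.7%, 49.9% and 61.1% with PCTR3, and 59.4%, 49.0%, 57.9% and 61.2% with RCTR3. In this component the vehicle libraries, the MCTR3 libraries and those of the other compounds formed separate ranges, and the MCTR3 difference was 13.6 points (SE 3.78, limma adjusted p = 0.72). Its counterpart comp142099_c0_seq9 averaged 55.4% ± 7.41 in vehicle libraries, 38.9% ± 4.88 in MCTR3, 9.67% ± 5.87 in PCTR3 and 12.2% ± 3.28 in RCTR3 libraries (SD, n = 4).

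Among losing transcripts, comp133936_c1_seq3 held 36.2%, 40.8%, 53.3% and 44.3% in vehicle, 28.9%, 27.3%, 26.4% and 30.8% with MCTR3, 8.41%, 19.0%, 19.4% and 9.72% with PCTR3, and 16.4%, 21.8%, 21.3% and 18.0% with RCTR3. The MCTR3 libraries lay below all vehicle libraries, with a difference of -15.3 points (SE 3.51, limma adjusted p = 0.63). comp128758_c0_seq1 held 70.7%, 62.0%, 65.9% and 74.2% in vehicle and 25.6%, 56.6%, 46.9% and 49.6% with MCTR3. Its MCTR3 mean of 44.7% ± 13.4 was close to the 45.0% ± 3.21 with PCTR3 and the 44.6% ± 11.9 with RCTR3 (SD, n = 4), and it differed from vehicle by -23.5 points (SE 6.33, limma adjusted p = 0.72).

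The extremes with MCTR3, singled out after their values had been seen, were transcripts with unsteady libraries. comp144738_c0_seq9 held 33.1%, 22.4% and 34.2% in vehicle libraries 1 to 3, was listed at 0 in library 4, and held 60.4%, 100%, 44.0% and 64.7% with MCTR3. comp103158_c0_seq1 held 0.305%, 90.5%, 93.6% and 92.6% in vehicle and 100%, 90.9%, 0.0907% and 0.0342% with MCTR3, then 91.0% to 100% in all PCTR3 and RCTR3 libraries. In this component of 2 transcripts, vehicle library 1 and MCTR3 libraries 3 and 4 carried the other transcript, and its place among members rests on that vehicle library.

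Against the other compounds, MCTR3 differed by limma from PCTR3 in 55 of the 308 transcripts (17.9%), against 1.1% of all tested, and from RCTR3 in 95 (30.8%), against 3.3%. The rule chose transcripts whose PCTR3 and RCTR3 shares lie far from vehicle, so these counts are given as a description.

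PCTR3 and RCTR3, the protectin and resolvin conjugates at the same dose and time, were not set against each other by the rule. The rule did require both to differ from vehicle in the same direction, which leaves out transcripts that moved apart. No switching transcript was called different: 0 of 308 by limma, against 0% of all 21999 tested. At an unadjusted p under 0.05 there were 8 (2.60%), against 4.59% of all tested. The PCTR3 and RCTR3 libraries did not overlap in 2 of the 308, against 2.15% of all tested. The 95% interval of the difference lay within 20 points for 184 transcripts (59.7%) and within 30 points for 264 (85.7%), beside 92.7% and 97.8% of all tested transcripts, so differences of about the size of the limit are not shown to be absent in the remaining members. The median size of the difference was 3.16 points, beside 1.40 points over all tested transcripts. The intervals of the switching transcripts were also wider, with a median half-width of 14.2 points, beside 5.03 points over all tested.

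**Figure D4:**
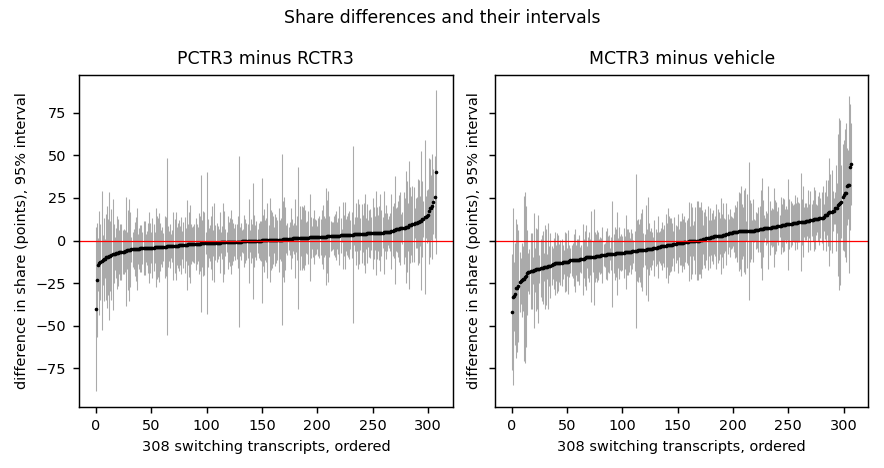
Difference in share in percentage points with its 95% interval (limma on untransformed shares) for each of the 308 switching transcripts, ordered by size, for PCTR3 minus RCTR3 (left) and MCTR3 minus vehicle (right). Median sizes are 3.16 points on the left and 8.22 points on the right, and interval half-widths have a median of 14.2 points in both.

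The members with the lowest p between PCTR3 and RCTR3 were these. comp140944_c0_seq13, which held 37.4% ± 1.78 in vehicle and 21.7% ± 8.48 with MCTR3 (SD, n = 4), was listed at 0 in PCTR3 library 1 and held 16.9%, 3.30% and 9.89% in the others, while no RCTR3 library exceeded 0.00536%. The difference was 7.51 points (SE 3.89, limma adjusted p = 0.94), with PCTR3 library 1 inside the RCTR3 range. comp144945_c1_seq6 held 24.2%, 8.16%, 28.8% and 22.7% with PCTR3 and 10.9%, under 0.815%, 16.6% and 0.815% with RCTR3, beside 41.2% ± 12 in vehicle. Its libraries overlapped, with a difference of 13.9 points (SE 5.81, limma adjusted p = 1).

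comp146466_c0_seq7 held 48.7%, 48%, 39.9% and 53.9% in vehicle and 29.0%, 40.2%, 34.9% and 28.3% with MCTR3. With PCTR3 it held 2.28% in library 2 and was at or near 0 in the others, and with RCTR3 it was listed at 0 in library 1 and held 30.5%, 2.78% and 11.4% in libraries 2 to 4. The ranges overlapped, with a difference of -10.6 points (SE 5.37, limma adjusted p = 1). comp138996_c1_seq1 differed by -40.4 points (SE 22.5, limma adjusted p = 1). Its shares jumped between libraries of 1 group: 0.452%, 22.6%, 0.00234% and 68.9% with PCTR3, and 100%, 100%, 4.28% and 49.2% with RCTR3.

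The ratios of the member totals to vehicle centred near 1 in every group, in the deposited TPM with no rescaling added here. Whether the deposited values had already been scaled between libraries is not stated. The ratio of the mean total to vehicle had a median of 0.992 with MCTR3 (range 0.772 to 1.17), 0.993 with PCTR3 (0.669 to 1.43) and 0.997 with RCTR3 (0.669 to 1.45), where the PCTR3 and RCTR3 ranges were bounded by the rule. Totals were under vehicle in 108 of the 197 members with MCTR3, in 100 with PCTR3 and in 100 with RCTR3. By limma on log2(sum + 1), 0 of the 197 totals differed between MCTR3 and vehicle, against 0% of the 11868 components tested. At an unadjusted p under 0.05 there were 15 (7.61%), against 10.6% of all tested. Between PCTR3 and RCTR3 0 of 197 differed, against 0% of all tested, with 3 (1.52%) at an unadjusted p under 0.05, against 2.83%. The 95% interval of the MCTR3 change lay within 1.5-fold for all 197 members, against 97.3% of all tested components. That of the PCTR3 minus RCTR3 difference did so for 196, against 98.4%.

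**Figure D5:**
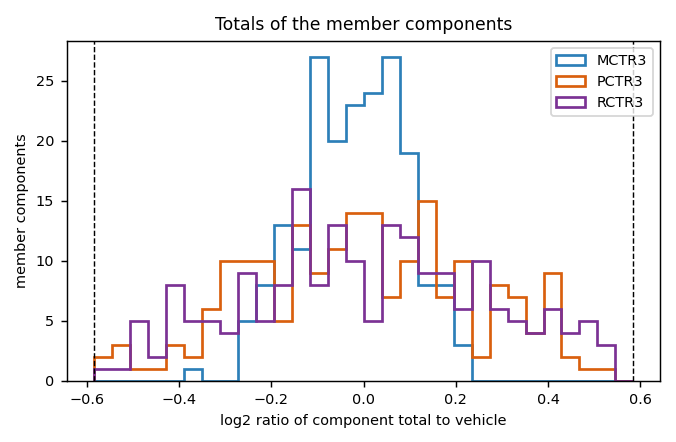
Histogram of the log2 ratio of the mean component total to vehicle for the 197 members with MCTR3, PCTR3 and RCTR3, with dashed lines at the 1.5-fold limit that the rule set for PCTR3 and RCTR3. The MCTR3 ratios, which had no such limit, run from 0.772 to 1.17 on the linear scale and are the narrowest.

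The lowest p for a total with MCTR3 belonged to comp141318_c4, with 10.1, 10.7, 11.5 and 14.1 TPM in vehicle and 9.26, 9.11, 8.39 and 9 TPM with MCTR3. All MCTR3 libraries lay below the vehicle libraries, a log2(sum + 1) difference of -0.33 (SE 0.10, limma adjusted p = 0.46), in the component whose comp141318_c4_seq2 also had the lowest p for its share. comp140777_c5 averaged 145 ± 17.6 TPM for vehicle and 123 ± 10.2 TPM for MCTR3 (SD, n = 4, difference -0.24, SE 0.08, limma adjusted p = 0.46). Its libraries overlapped, with the lowest vehicle library at 129.5 TPM and the highest MCTR3 library at 130.4 TPM. Vehicle library 4 was the highest in both components, at 14.1 TPM in comp141318_c4 and 170 TPM in comp140777_c5. On the other side, comp145339_c6 stood at 27.7 ± 1.61 and 30.9 ± 1.01 TPM (difference 0.15, SE 0.06, limma adjusted p = 0.46) and comp133568_c0 at 15.8 ± 1.80 and 18.1 ± 1.58 TPM (difference 0.19, SE 0.09, limma adjusted p = 0.47). Over the settings tried, the limma adjusted p of these totals ran from 0.32 (0.34 for comp145339_c6) to 0.99.

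Summarised by library, the median share over the 141 gaining transcripts ran from 20.7% to 30.1% in vehicle, 32.3% to 40.4% with MCTR3, 53.1% to 64.9% with PCTR3 and 54.6% to 62.6% with RCTR3. Over the 167 losing transcripts it ran from 52.6% to 63.9%, 42.7% to 51.9%, 19.8% to 30.2% and 18.8% to 27.9%. The rule chose the transcripts by the vehicle, PCTR3 and RCTR3 shares of these same libraries. Nothing is therefore read from the separation of the ranges, including that of MCTR3 from vehicle. Vehicle library 4 stood lowest for gains and highest for losses, and MCTR3 library 1 was the MCTR3 library nearest to the PCTR3 and RCTR3 libraries. The TPM sum of vehicle library 4 was also the highest of all 16 (1129 kTPM, or kilo-TPM, where the lowest was 926.1) and its number of transcripts at 1 TPM or more the lowest (24196, where the highest was 26124). Its part in these results was tested by leaving it out: 177 components then met the rule, 145 of them among the 197. The sums also differed by side of the numbering. They were at least 1.00031e+06 TPM in every vehicle and MCTR3 library, and at most 992087 TPM in every PCTR3 and RCTR3 library. Transcripts at 1 TPM or more numbered at most 25426 in the former and at least 25500 in the latter. The totals used by the rule were not rescaled for this, and its cause was not tested. Read depth cannot be recovered from TPM, and values here carry no counting error.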

How the data were processed

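The deposited values are log2 TPM for 44857 transcripts in 16 libraries, computed by the authors per transcript, as the labels describe. Kallisto and sleuth are listed in the submitters' processing notes with neither version nor role, and which transcript set was used is not stated there. The shared lowest value (-34.92) was read as a TPM of 0, and other values were raised back from log2. Groups and replicate numbers came from sample titles. No 2 libraries held identical values.

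Shares are the TPM of a transcript divided by the sum of its component, and a group's share is the mean of its libraries' shares, so scaling between libraries does not enter. Shares of 21999 transcripts (mean share of at least 1%, components of 2 or more transcripts with at least 5 TPM in each group) were fitted with limma 3.58.1 in R 4.3.3 on the arcsine square root scale, with 4 group means over all 16 libraries and an intensity trend. Differences, standard errors and intervals in points came from the same model on untransformed shares. Totals of 11868 components were fitted as log2(sum + 1), with a pseudocount of 1 that understates changes of low totals. Two-sided p-values were adjusted (Benjamini-Hochberg) across every feature tested, separately in each of the 6 pairs of groups, with a threshold of 0.05. All 308 switching transcripts and 197 totals passed the filters. The fits were tested on simulated data. Named members are those with the largest share differences, those with the lowest p in each direction (at most 2 each way per comparison) and those nearest the limit, plus those said to be chosen after seeing values. The members and rules were chosen with earlier results of these data known.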

Additional observations from a re-analysis of the deposited data

Results flagged for a closer look

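Shares of the named transcripts and their counterparts were checked for 1 library far from the other 3 of its group (Dixon's criterion for 4 values, on shares rounded to 0.1 points). Of 152 transcript and group combinations 13 were marked, where chance marks about 1 in 20, and shares of the same component mirror each other.

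In comp134254_c0, PCTR3 library 4 stood at 19.1% for comp134254_c0_seq3, where the others were at 95.4% or more, and at 74.8% for comp134254_c0_seq4, where the others were at 0.1% or less. In comp103158_c0, vehicle library 1 stood at 0.3% for comp103158_c0_seq1 and at 99.7% for comp103158_c0_seq2, where the others were at 90.5% or more and 9.5% or less. In comp138996_c1, vehicle library 2 stood at 67.4% for comp138996_c1_seq1 and at 32.6% for comp138996_c1_seq2, where the others were at 100% and 0%. In comp138534_c0, vehicle library 4 stood at 95.3% for comp138534_c0_seq1 and at 4.7% for comp138534_c0_seq3, where the others were at 100% and 0%.

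Vehicle library 4 also stood at 54.0% for comp145098_c0_seq12, where the others were at 37% or less. Vehicle library 1 stood at 17.0% for comp143618_c1_seq11, where the others were at 24.7% or more. MCTR3 library 1 stood at 85.9% for comp138079_c0_seq8, where the others were at 79.8% or less, and MCTR3 library 4 at 58.8% for comp141318_c4_seq2, where the others were at 66.8% or more. PCTR3 library 2 stood at 2.3% for comp146466_c0_seq7, where the others were at 0%.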

How the results depend on the processing

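The number of members followed the limits of the rule: 437 with 15 points, 88 with 25, 39 with 30, and 125 with a minimum of 10 TPM. It was 142 with a narrower fold limit, 223 within 2-fold, 182 after rescaling to a common TPM sum, 211 with the share of the group mean TPM and 226 with median shares, of which 191 and 173 were among the 197. Leaving out 1 library gave 167 to 237 members. Among all tested transcripts, the share fit of MCTR3 against vehicle called 1, 2 with shares in points, 0 with log2 ratios, 0 with a mean share of at least 5%, 0 with a minimum of 10 TPM, 7 with only these groups fitted and 0 to 4 without 1 library (0 without vehicle replicate 3 or 4 or MCTR3 replicate 2 or 3). PCTR3 against RCTR3 called 0, 2 with log2 ratios, 2 with no minimum share, 1 with only these groups fitted and 0 to 2 without 1 library. The cause of these shifts was not tested. None of these settings called a switching transcript in either comparison, and no setting called a total. No setting reversed a direction among the named values recomputed, which were the shares of comp134254_c0 and comp121080_c0 against vehicle and the shares and totals with the lowest p. The other named shares were not recomputed.

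With the replicate block, the share fit called 2 transcripts for MCTR3 against vehicle and 0 for PCTR3 against RCTR3, and 0 totals in each. The numbers were not taken to pair the libraries: the correlation of share deviations ran from -0.0255 to 0.0832 over 24 same-numbered pairs, with 0 over 0.1. Its mean was 0.0213 for the same number and -0.0071 for other numbers, and 8 of 16 libraries correlated best with their own number, which is a hint from the data and not from the design. Low totals and unknown depth limit the shares of members near 5 TPM.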
